A study of Nematostella vectensis with 66 samples.

Results

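The step from ZT4 to ZT5 was followed in adult Nematostella vectensis, the starlet sea anemone, using 11 of the 66 libraries of an hourly field series. The libraries were chosen by their labelled hour: 7 were sampled at ZT5 (10 h on the clock) and 4 at ZT4 (9 h). ZT5 held individual libraries A, B, C and D, each from 1 animal, and pooled libraries E, F and G, each from 2 animals. ZT4 held individual library C and pooled libraries D, E and F. The stated sampling scheme gives the letter D to single animals, so the label of ZT4 library D as a pool departs from it, and the label was followed. All groups shared strain history and treatment: laboratory-reared descendants of a Massachusetts marsh population, placed in mesh pens in a tidally restricted marsh pool at matched salinity and preserved on site. The labels give no genotype or age beyond adult, and do not tie a library to a pen, so a difference between these hours cannot be told apart from one between pens.

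Nematostella is a burrowing estuarine anemone with a diffuse nerve net and no eyes, yet it carries homologues of animal clock genes and of light-sensing cryptochromes. In the laboratory many of its transcripts follow light and dark cycles, and the animals move more at night. The gene models carry identifiers that the reference table used here did not match to any name, so no role is given to any of them and no sequence is shown. Each library was made from whole animals, so fewer cells of a type and less RNA per cell cannot be told apart.

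The 11 libraries held between 251647 counts (ZT4 individual C) and 780576 counts (ZT5 individual D), against a median of 640195 over the series. ZT5 libraries averaged 617700 ± 83520 counts (SD, n = 7) and ZT4 libraries 522200 ± 185100 (SD, n = 4), a difference with a two-sided exact permutation p of 0.324. After thinning every library to the lowest total, 14240 ± 423 gene models (SD, n = 7) had a read at ZT5 and 13990 ± 155 (SD, n = 4) at ZT4, with an exact permutation p of 0.318. Both p became 0.324 when adjusted over the 3 such measures compared.

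A pair of features set some libraries apart before any comparison. The first was a block of 21 gene models, picked because each was at least 3 times higher in every one of 4 libraries than in any of the other 62. These genes took 3.46% of the counts of ZT4 individual C, 1.91% of ZT4 pooled E and 6.00% of ZT5 pooled E, and at most 0.0155% in the other 8 libraries of the step. The fourth library was ZT3 individual B, at 6.77%. None of the 21 was among the genes called between ZT4 and ZT5, their lowest adjusted p in edgeR being 0.594. Of all genes tested, 0.531% were called as rising and 1.28% as falling. The 21 were chosen by height in libraries of both hours, so nothing is read from their absence.

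The second feature was the likeness of ZT4 pooled E and F. With the 21 genes set aside, their counts differed with a chi-square of 1.89 per degree of freedom, the lowest of all 2145 pairs of libraries in the series. The next closest pair, ZT3 individual A and ZT4 pooled D, had 2.72. The Pearson correlation of log2 CPM (counts scaled to a common library size) across genes was 0.942 between E and F, and 0.82 to 0.854 for the other pairs within ZT4. Pairs within ZT5 had 0.77 to 0.91. E and F are labelled as separate pools and their counts differed by more than counting noise, so they were kept as separate libraries. That chi-square does not show whether they came from different animals or RNA, so results are also given with their counts summed to 1 library and with both left out.

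**Figure D1:**
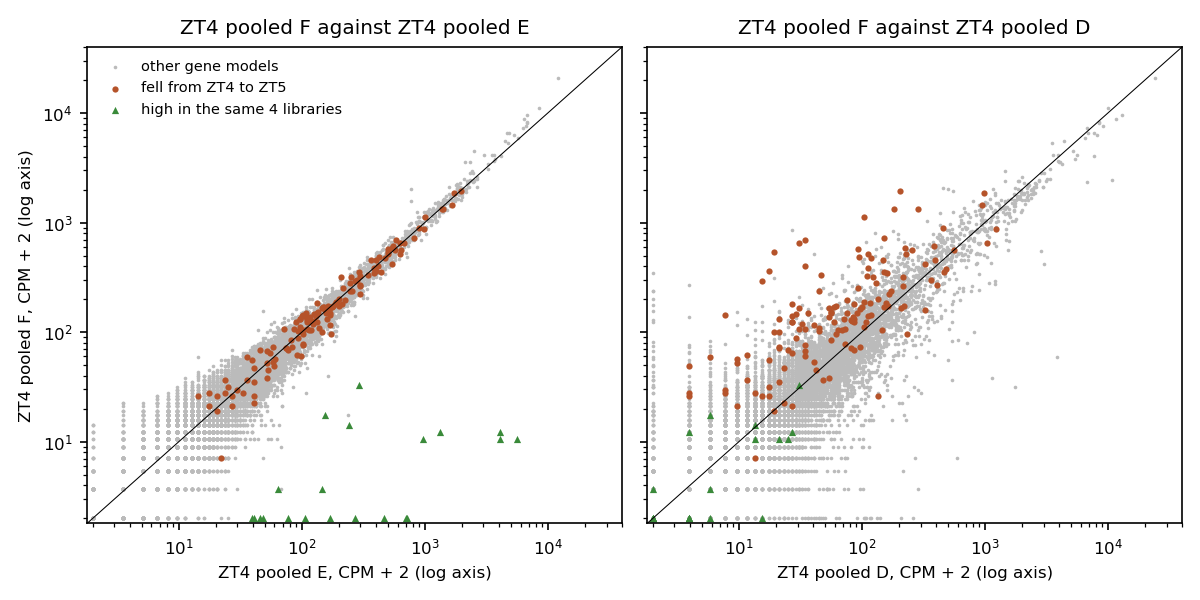
CPM + 2 of each tested gene model in ZT4 pooled F (vertical, log axis) against ZT4 pooled E (left) and ZT4 pooled D (right), with 1 point per gene model and the line of equality. Gene models that fell from ZT4 to ZT5 (orange) lie along the line for E and F and mostly above it against D, and the 21 genes high in the same 4 libraries (green) are high in E and low in F.

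The question of the comparison was which transcripts changed over this hour of the morning. With sample type as covariate in edgeR's quasi-likelihood fit, 58 of 10916 gene models rose (0.531%) and 140 fell (1.28%) at a Benjamini-Hochberg adjusted p under 0.05. The median log2 change was -1.35 among those that fell (quartiles -1.83 and -0.98) and 1.21 among those that rose (quartiles 0.98 and 1.55), beside 0.06 over all genes tested. With ZT4 pooled E and F kept, falls reached further: 28 of 140 passed a log2 change of 2 in size and 11 passed 3, against 6 and 2 of the 58 rises. Called genes were more abundant than most, with a median of 70.8 CPM for falls and 59.8 CPM for rises over the 11 libraries, beside 25.1 CPM for all. With E and F as 1 library, 8 rose (0.0704%) and 57 fell (0.502%) of 11359, and every one of these was among the 58 and 140. With both left out, 3 rose and 4 fell of 11955. The 4 falls were among the 140, but none of the 3 rises was among the 58. In that fit the 140 falls had a median log2 change of -0.698, with 128 still below 0. The 58 rises had a median of 1.03, with all 58 still above 0. The libraries left in that fit had also called these genes, and signs were not counted over all genes. These medians and signs are therefore descriptions and no test. With 1 library left out, the 198 calls became 51 without ZT4 pooled F, 66 without ZT4 pooled E, 117 without ZT5 pooled F and 311 without ZT4 pooled D.

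**Figure D2:**
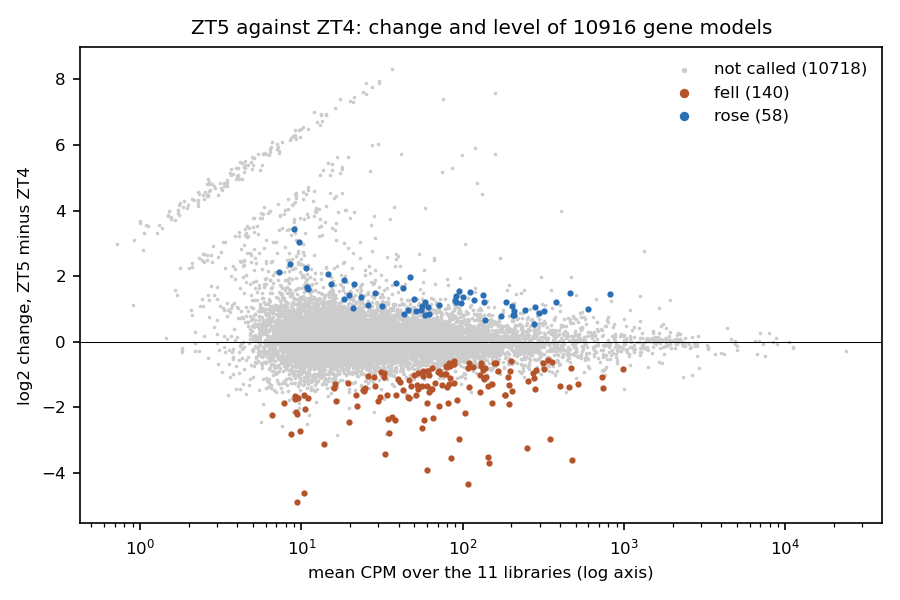
Log2 change from ZT4 to ZT5 in edgeR's fit (vertical) against mean CPM over the 11 libraries (horizontal, log axis), with 1 point per gene model tested. The 140 falls (orange) and 58 rises (blue) lie mostly at middle and high levels, while the points with log2 changes of 4 or more at the top were not called.

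The 140 falling genes were highest in 2 of the 4 ZT4 libraries. ZT4 pooled E and F were the 2 highest of all 11 libraries in 103 of the 140 falls, beside 7.6% of all genes tested. Since these libraries entered the test that called the genes, that count is a description. Against the ZT5 median, the median fall stood 1.61 log2 units higher in E and 1.71 in F, but 0.86 in individual C and 0.59 in pooled D. A level at least 2-fold above the ZT5 median was found for 110 falls in E, 112 in F, 61 in C and 42 in D. Over all genes tested, the median distance from the ZT5 median was -0.04 log2 units in C, 0 in D and -0.03 in both E and F. The 2-fold counts were not made over all genes and rest on libraries that called the falls, so they are descriptions.

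The 58 rising genes were low in all 4 ZT4 libraries to a more similar degree. Their median stood below the ZT5 median by -1.10 log2 units in C, -0.97 in D, and -1.37 in both E and F. All 58 were below the ZT5 median in C, E and F, and 57 of them in D. Among the falls, 127 were above the ZT5 median in C and 117 in D. These counts also rest on libraries that called the genes and were not made over all genes, so they are descriptions.

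Groups that did not overlap were a minority of both sets. For 27 of the 58 rises all 7 ZT5 libraries were above all 4 ZT4 libraries, beside 1.04% of all genes tested. For 47 of the 140 falls all 7 ZT5 libraries were below all 4 ZT4 libraries, beside 1.05%. These shares rest on the same contrast that called the genes, so nothing is read from them.

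**Figure D3:**
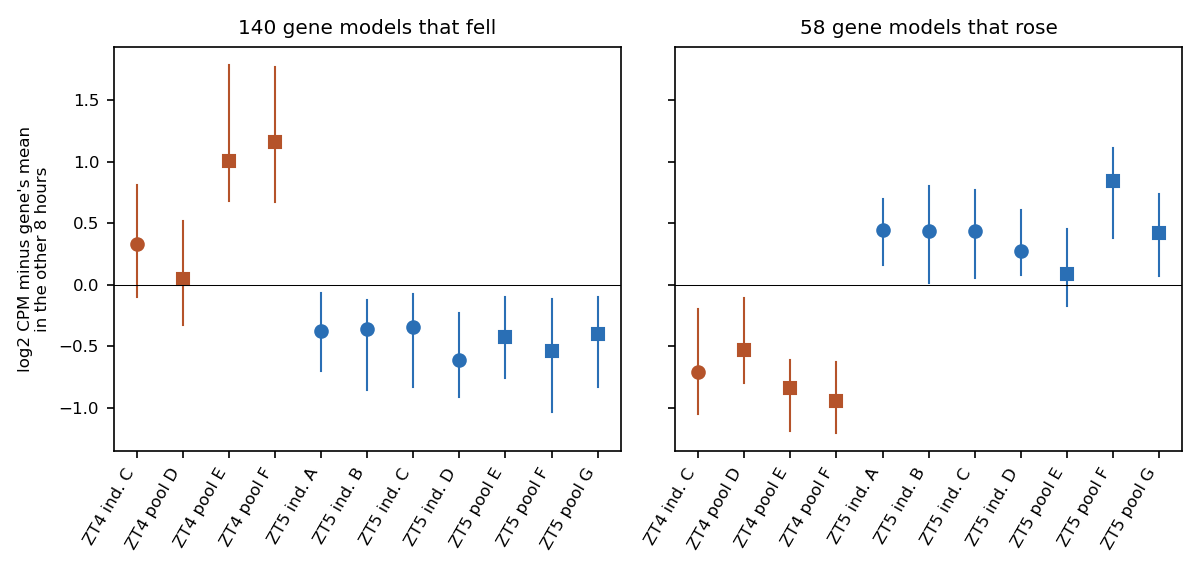
Log2 CPM minus the gene's mean over the 8 hours other than ZT4 and ZT5, for the 140 falls (left) and the 58 rises (right) in each of the 11 libraries. Points are medians over genes and bars are quartiles (circle, individual; square, pool; orange, ZT4; blue, ZT5). For falls, ZT4 pooled E and F stand at 1.00 and 1.16 while ZT4 pooled D is at 0.04, and the 7 ZT5 libraries lie between -0.61 and -0.34.

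The levels in the 55 libraries of the other hours place these medians. For the falls, the median over genes ran from -0.32 to 0.44 log2 units in those 55 libraries. ZT4 pooled E and F were above all of them, individual C, at 0.33, was below 4, and pooled D, at 0.04, was below 21. All 7 ZT5 libraries, between -0.61 and -0.34, were below all 55. For the rises the median over genes ran from -0.27 to 0.31, and all 4 ZT4 libraries were below all 55, with D the nearest at -0.54. The ZT4 and ZT5 libraries chose these genes and the 55 did not, so this placement is a description and no test. At ZT5 the rises were at 0.08 in pooled E and 0.84 in pooled F, the lowest and highest of the 7.

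The gene models named next were taken by smallest p, or by level among calls whose groups did not overlap. NVE2223 had the smallest p among the falls. Its level at ZT4 was 382 CPM in C, 203 in D, 1959 in E and 1921 in F. At ZT5 its lowest value was 26, the median 95.8 and the highest 225 CPM. E and F were thus 5 or more times as high as C and D, and D lay below the highest ZT5 library. The log2 change was -3.62 (SE 0.48, edgeR adjusted p = 4.92e-06). With E and F as 1 library it was -3.22 (adjusted p = 0.000231), and without both -1.43 (SE 0.51, adjusted p = 0.382). In a fit of only the 11 libraries it was -3.31 (SE 0.84, edgeR adjusted p = 0.1725).

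NVE11971 had the same form. It stood at 248 CPM in C, 179 in D, 1366 in E and 1333 in F, and between 45.6 and 170 CPM at ZT5, with a median of 92.3. The groups did not overlap, but D was close to the highest ZT5 library. The log2 change was -2.97 (SE 0.41, edgeR adjusted p = 5.38e-06), and -1.06 (SE 0.45, adjusted p = 0.520) without E and F. In a fit of only the 11 libraries it was -2.60 (SE 0.62, edgeR adjusted p = 0.1529).

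NVE25706 and NVE448 were named from the fit without 3 libraries, in which ZT4 was held by pooled D and F only. NVE25706 stood at 14.9 CPM in C, 13.5 in D, 267 in E and 294 in F. At ZT5 it ran from 0 to 14.4 CPM, and the read count of 0, in individual C, allows up to 5.60 CPM, by counting error only. NVE448 stood at 54.5 CPM in C, 28.9 in D, 632 in E and 648 in F, and at 10.5 to 49.1 CPM at ZT5. In both, C and D were near or within the ZT5 range and E and F stood far above it. Without the 3 libraries their log2 changes were -4.14 (SE 0.63) and -3.68 (SE 0.57), each with an edgeR adjusted p of 9.03e-05. In the fit of all libraries without E and F they were -0.53 (SE 0.80, adjusted p = 0.896) and -0.43 (SE 0.61, adjusted p = 0.885).

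NVE7526 differed from these, being high in all 4 ZT4 libraries. It stood at 640 CPM in C, 1032 in D, 677 in E and 649 in F. At ZT5 it was 309 CPM in A, 207 in B, 291 in C, 273 in D, 256 in pooled E, 230 in pooled F and 437 in pooled G. The lowest ZT4 library was above the highest ZT5 library. The log2 change was -1.39 (SE 0.24, edgeR adjusted p = 0.000229), -1.45 with E and F as 1 library (adjusted p = 0.00107) and -1.55 without both (SE 0.30, adjusted p = 0.0131). It was called in each of the 25 other settings of the comparison. Those settings reuse libraries that chose NVE7526, so that count is a description.

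NVE25710, the fall with the smallest p in pools, also had separate groups. It stood at 94.2 CPM in C, 84.9 in D, 158 in E and 131 in F, and between 15.3 and 31.5 CPM at ZT5. Every ZT4 library was more than 2 times as high as any ZT5 library. In all 11 libraries its log2 change was -2.64 (SE 0.39, edgeR adjusted p = 9.57e-06), and without E and F it was -2.11 (SE 0.48, adjusted p = 0.0508).

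NVE2702 stood at 288 CPM in C, 222 in D, 538 in E and 582 in F, and at 138 to 191 CPM at ZT5. Its groups did not overlap, and its log2 change was -1.20 (SE 0.21, edgeR adjusted p = 0.000334). Without E and F it was -0.58 (SE 0.26, adjusted p = 0.549). NVE12877 stood at 99.2 CPM in C, 228 in D, 631 in E and 511 in F, and at 48.8 to 188 CPM at ZT5, so C lay within the ZT5 range. Its log2 change in pools was -2.28 (SE 0.43, edgeR adjusted p = 0.0436), and -2.09 with E and F as 1 library (adjusted p = 0.221). In the fit of all libraries without E and F it was -0.80 (SE 0.45, adjusted p = 0.685).

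Besides NVE7526, the falls called without E and F were NVE2794, NVE13968 and NVE8066, chosen here after their values were seen. NVE2794 stood at 144 CPM in C and 133 in D, and at 38.8 in E and 24.2 in F, with 8.08 to 33.3 CPM at ZT5. It was thus highest in C and D, the ZT4 libraries in which most falls were lower. Its log2 change without E and F was -2.50 (SE 0.39, edgeR adjusted p = 0.000301). NVE13968 was at 164 to 206 CPM in the 4 ZT4 libraries and at 45.6 to 118 CPM at ZT5. NVE8066 was at 273 CPM in C, 232 in D, 169 in E and 95 in F, and at 80.4 to 139 CPM at ZT5.

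The 3 rises called without E and F, NVE1210, NVE13579 and NVE21739, were also named after their values were seen, and were not among the 58. NVE13579 stood at 44.6 CPM in C and had no read in D, which allows up to 5.64 CPM, while E had 272 and F 237 CPM. Its ZT5 range was 32.6 to 176 CPM. NVE1210 stood at 24.8 CPM in C and 1.93 in D, against 177 in E and 135 in F. For NVE13579, E and F were above the ZT5 range, C lay inside it and D was below it. For NVE1210, E and F were higher than C and D. NVE21739 had a log2 change of 2.09 without E and F (SE 0.43, edgeR adjusted p = 0.0185). Its levels in each library are not described here, so no pattern is given for it.

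Among the rises, NVE7149 had the smallest p. It stood at 54.5 CPM in C, 63.7 in D, 65.3 in E and 77.7 in F. At ZT5 it was 186 CPM in A, 128 in B, 220 in C, 153 in D, 126 in pooled E, 163 in pooled F and 237 in pooled G. The groups did not overlap and the ZT4 libraries were close to each other. The log2 change was 1.42 (SE 0.27, edgeR adjusted p = 0.000824), 1.44 with E and F as 1 library (adjusted p = 0.00672) and 1.54 without both (SE 0.37, adjusted p = 0.0790).

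NVE5408 stood at 258 CPM in C, 168 in D, 197 in E and 225 in F, and at 249 to 690 CPM at ZT5. The ranges overlapped by 1 library, ZT5 individual C at 249 CPM. The log2 change was 1.20 (SE 0.23, edgeR adjusted p = 0.000946). It was 1.40 (adjusted p = 0.0207) without the 3 libraries and 1.18 (SE 0.31, adjusted p = 0.135) without E and F.

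NVE21566 and NVE979 were the rises with the smallest p in pools. NVE21566 stood at 36.7 to 49.7 CPM at ZT4 and 59.3 to 161 CPM at ZT5, with no overlap and a log2 change of 1.61 in pools (SE 0.29, edgeR adjusted p = 0.0347). In pools with E and F as 1 library it was 1.66 (adjusted p = 0.196). In the fit of all libraries without E and F it was 1.49 (SE 0.51, adjusted p = 0.349). NVE979 was a rare transcript, with 3 counts over the 4 ZT4 libraries and 55 over the 7 of ZT5. Their ratio, scaled for library size, was 8.86 (95% exact interval 2.88 to 44.3, counting error only). In pools the log2 change of NVE979 was 3.63 (SE 0.79, edgeR adjusted p = 0.0436). It passed in 2 of 15 other settings of that comparison, and had an adjusted p of 0.2275 with E and F as 1 library. NVE15093, named from the fit without 3 libraries, stood at 149 CPM in C, 54 in D, 34.2 in E and 29.4 in F, and at 82.5 to 209 CPM at ZT5. C lay inside the ZT5 range and was one of the libraries left out. Its log2 change in that fit was 1.94 (SE 0.42, edgeR adjusted p = 0.0135), and 0.62 (SE 0.40, adjusted p = 0.744) in the fit of all libraries without E and F.

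**Figure D4:**
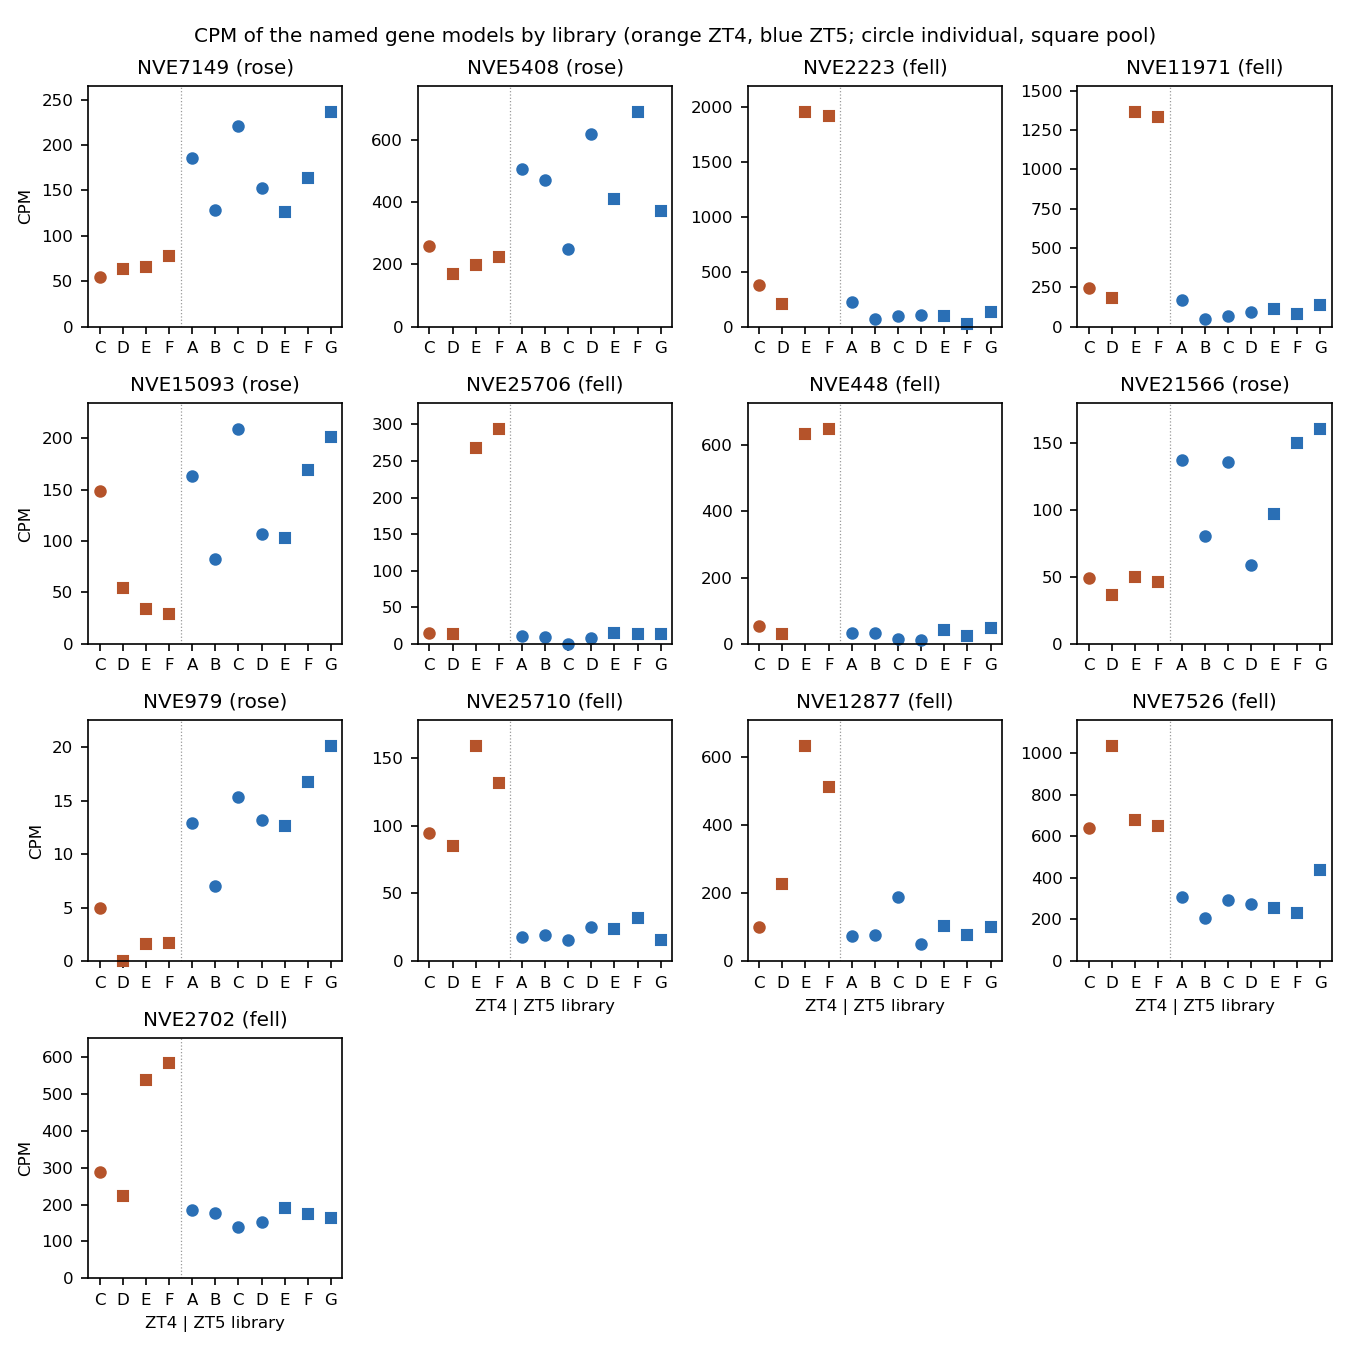
CPM (vertical, from 0) of the 13 gene models named by rule in each of the 11 libraries (horizontal; orange, ZT4; blue, ZT5; circle, individual; square, pool). NVE2223, NVE11971, NVE25706 and NVE448 are far higher in ZT4 E and F than in C and D, whereas NVE7526 and NVE25710 are high in all 4 ZT4 libraries.

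With sample type held fixed, 3 pools at ZT5 were compared with 3 at ZT4 in a fit of the 29 pooled libraries. Of 10997 gene models, 6 rose (0.0546%) and 20 fell (0.182%). All 20 falls and 4 of the 6 rises were among the 140 and 58. With E and F as 1 library edgeR called 0 genes, with 831 at an unadjusted p under 0.05, and other tools were not run in that setting. With 1 pool left out there were 123 calls without ZT4 pooled D, and 0 to 6 without any other of the 6.

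Without pooled E of both hours and ZT4 individual C, which carry the block of 21 genes, 2 of 11780 gene models rose (0.017%) and 37 fell (0.314%). The rises were NVE5408 and NVE15093. Of the falls, 36 were among the 140. ZT4 was then held by pooled D and F. Leaving out F as well left 4 rises and 2 falls, whereas leaving out D left 12 rises and 87 falls, and the lone ZT4 library is assumed there to vary like the other groups. In all, 33 falls and 1 rise, NVE5408, were called with all libraries, with E and F as 1 library and without the 3 libraries.

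The difference between pools and individuals in this step was tested in itself. It passed in 39 of 10916 gene models (0.357%), with a higher step in pools for 28 and a lower one for 11. Of the block of 21 genes, 16 were among the 39, beside 0.357% of all genes tested. The block was chosen by height in ZT4 individual C and ZT5 pooled E, among others. None of the 39 was among the 58 rises or 140 falls, which made up 0.531% and 1.28% of all genes tested. Nothing is read from either count. The step of individuals rests on 1 ZT4 library, and the count was 6 without ZT5 pooled E, 20 without ZT4 pooled F and 24 without ZT5 individual D.

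The hourly course of the called genes was then described from the fitted level of each hour. The median fall stood 0.80 log2 units above its mean over the other 8 hours at ZT4 and -0.49 at ZT5, and was at 0.02 at ZT3 and 0.01 at ZT6. The median rise was at -0.07 at ZT3, -0.80 at ZT4, 0.41 at ZT5 and 0.10 at ZT6. ZT4 was the highest of the 10 hours for 129 of 140 falls, beside 17.3% of all genes tested, and ZT5 the lowest for 85, beside 10.4%. For rises ZT4 was the lowest hour in 51 of 58, beside 24.3%, and ZT5 the highest in 33, beside 10.1%. Both held at once in 76 falls and 26 rises, a count that was not made over all genes, so nothing is read from it. ZT4 and ZT5 chose these genes, so the counts describe the departure and are no test of it.

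**Figure D5:**
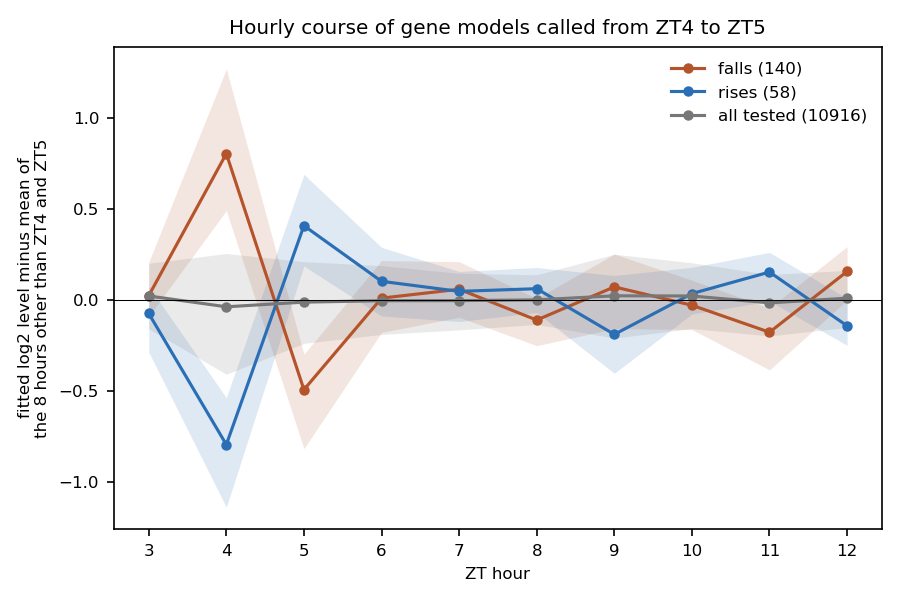
Fitted log2 level of each hour minus the gene's mean over the 8 hours other than ZT4 and ZT5 (vertical) against ZT hour (horizontal). Lines are medians over genes and bands are quartiles for falls (orange), rises (blue) and all genes tested (grey). Falls are at 0.80 at ZT4 and -0.49 at ZT5, rises at -0.80 and 0.41, and both are within 0.2 of 0 at every other hour.

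NVE2223 averaged 246 ± 138 CPM over the 7 libraries of ZT3 (SD). It averaged 1120 ± 954 over the 4 of ZT4, 108 ± 61.4 over the 7 of ZT5 and 221 ± 70.3 over the 6 of ZT6. The SD at ZT4 was close to the mean. NVE7149 averaged 102 ± 46, 65.3 ± 9.53, 173 ± 43.1 and 142 ± 18.0 CPM at the same hours. NVE7526 averaged 577 ± 199, 750 ± 189, 286 ± 75.2 and 436 ± 132 CPM. ZT4 and ZT5 were the extreme hours for NVE7526, and over the other 8 hours its mean ran from 320 ± 98 CPM at ZT11 to 577 ± 199 at ZT3.

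ZT6 and ZT3 share no library with the step and give a contrast that did not choose the genes. From ZT3 to ZT6, 4 of the 140 falls were higher and 7 lower at an unadjusted p under 0.05 in edgeR, beside 2.61% and 3.23% of all genes tested. Of the 58 rises, 6 were higher and 0 lower. At an adjusted p under 0.05, 1 of them was higher, NVE21566, with a log2 change of 1.28 (adjusted p = 0.0358), beside 0.0458% of all genes tested. From ZT6 to ZT9, a contrast added after the data were seen, 21 of the falls were higher and 22 lower at an unadjusted p under 0.05, beside 11.2% and 15.1%. Of the rises, 4 were higher and 20 lower.

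The largest rises over the step were not among the calls. All 3 gene models that fell by 4 or more on the log2 scale were called, but a log2 change of 4 or more upward was fitted for 171 gene models, 115 of which had no read at ZT4, and the lowest adjusted p among them was 0.0626. The ZT5 library with the highest level was individual D for 129 and individual B for 29 of the 171. In 143 of them B or D was at least 3 times as high as each of the other 5 ZT5 libraries. One such gene model, NVE20622, chosen after its values were seen, had 714 CPM in B, 930 in D and 95.9 in pooled G at ZT5, and at most 3.6 CPM in the other 4 ZT5 and all 4 ZT4 libraries. Without B and D, 45 gene models rose and 99 fell over the step, with 37 and 86 of them among the 58 and 140.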

How the data were processed

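The authors deposited raw counts for 24265 gene models in each of 66 libraries. Reads were aligned to the genome of Putnam and colleagues per the labels, and the submitters' processing notes name Bowtie2. The counting tool, the annotation and any use of molecular identifiers are not given in the sources used here. Reads of near-identical gene models may therefore have been split. Of the gene model identifiers, 0 were found in the reference table (assembly jaNemVect1.1).

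Counts were tested with edgeR 4.0.16 in R 4.3.3 (TMM, robust quasi-likelihood F test, Benjamini-Hochberg adjustment, threshold 0.05). The fit held all 66 libraries with sample type as covariate and 55 residual degrees of freedom. Filtering on low counts (filterByExpr by hour, minimum 10) left 10916 gene models with 97.2% of counts. CPM used TMM factors, and log2 CPM a prior count of 2. The pools and the fit without 3 libraries had fits of their own. Alternatives used DESeq2 1.42.0, limma 3.58.1, other filters and scalings, and each library left out. Fits were tested on simulated counts.

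The libraries, the settings and the lists were chosen with earlier results of these data known. Named gene models were, per direction, up to 2 called with the smallest p in each comparison, and the 2 most abundant shared calls without overlap, each time passing over those already named. The labels name replicates as separate animals or pools.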

Additional observations from a re-analysis of the deposited data

Results flagged for a closer look

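Values within an hour were screened for a single library far from the rest, over 38 combinations of measure and hour, and 3 stood out. Chance alone picks about 1 in 20 such groups. ZT4 pooled D had 1032 CPM of NVE7526, against 677 CPM in the nearest ZT4 library. ZT5 individual C had 188 CPM of NVE12877, against 104 CPM in the nearest of the other ZT5 libraries. ZT5 pooled E held 6.00% of its counts in the block of 21 shared gene models, against at most 0.0155% in the other ZT5 libraries. The choice of these 21 by their height in that library fixed this difference, so it is no finding beside the chance rate. The step from ZT4 to ZT5 differed between pools and individuals in 39 gene models by a test of the difference, and in 6 when ZT5 pooled E was left out. The individual step in that test rests on 1 ZT4 library, C, which itself carries the block, and its spread is assumed to be that of the other groups. Of the 39, 16 belong to the block. The block was chosen by height in C and ZT5 pooled E, among others, so that count is no test. The relation of the 39 to the block was not otherwise tested.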

How the results depend on the processing

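The comparison of all libraries gave 198 calls. Calls numbered 464 with limma, 96 with no filter on low counts, 13 with only the 11 libraries, 46 without the 4 libraries that carry the shared block, 92 with counts thinned to the lowest total, 65 with ZT4 pooled E and F as 1 library and 7 without both. They ranged from 51 (without ZT4 pooled F) to 311 (without ZT4 pooled D) with 1 library left out, with 66 without ZT4 pooled E and 117 without ZT5 pooled F. DESeq2, its size factors, the older form of the edgeR test, no sample type term, library D as individual and leaving out ZT5 individual B and D gave 144 to 254.

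In pools, 26 calls became 108 with DESeq2, 207 with limma, 12 with no filter, 4 with the older edgeR form, 0 with only the 6 libraries (753 at an unadjusted p under 0.05), 0 without both libraries E (911) and 0 with ZT4 pooled E and F as 1 library (831). Leaving out 1 pool gave 0 (without ZT4 pooled E or F) to 123 (without D), and 1, 2 and 6 without ZT5 pooled F, E and G. Without the 3 libraries, 39 calls became 95 with DESeq2, 6 with limma, 25 with no filter and 0 with only the 8 libraries (777 at an unadjusted p under 0.05). Leaving out 1 more gave 6 to 99. The 39 calls of the difference between pools and individuals became 17 with DESeq2 and 8 with limma, and 6 to 51 with 1 library left out. Beyond the fewer libraries or genes, the cause of these shifts was not tested.

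Same-lettered libraries of ZT4 and ZT5 correlated at -0.04 to 0.07 in their deviations, so the letters were not taken as pairs. With the letter as a replicate block, the calls numbered 186 with all libraries, 112 in pools and 40 without the 3 libraries. The difference in library totals changed sign in pools, to -37846 counts (exact permutation p = 0.5, smallest possible 0.1), and with ZT4 pooled E and F averaged to 1 its p was 0.183. Over the settings, the log2 changes of the named gene models kept their direction in all 266 values, and 53 of these no longer passed. The settings reuse most of the libraries that chose these gene models, so the kept direction is a description and no test. ZT4 individual C, at 251647 counts, limits the precision of rare transcripts.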
